A study of Mus musculus with 14 samples.

Results

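The genes described here are 5 erythroid genes of the mouse: the embryonic globins Hbb-y, Hba-x and Hbb-bh1, the haem synthesis enzyme gene Alas2 and the transferrin receptor gene Tfrc. They were taken by symbol, as genes with a named probe in the authors' value table, and they hold 7 probes (2 each for Hbb-y and Tfrc). That table names 10544 genes, and 10478 genes entered the tests. All 5 genes passed the filter on detection, but the 3 globins passed it only through the pregnant arrays, where they are bright, so passing the filter already fixed the direction of their difference from non-pregnant uterus.

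The first red cells of a mouse embryo are made in the yolk sac and carry embryonic haemoglobin, in which alpha-type chains, among them the zeta chain of Hba-x, pair with the epsilon-y chain of Hbb-y or the beta-h1 chain of Hbb-bh1. Later red cells come from the fetal liver and then the marrow and use the adult globins. Every red cell needs haem, and ALAS2 is the erythroid form of the enzyme that starts its synthesis in the mitochondrion. Iron reaches that pathway bound to transferrin through the receptor encoded by Tfrc, which other dividing cells and the placenta also carry.

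RNA came from uterus of C57BL/6 mice, given as 8 weeks old, and was hybridised to Illumina BeadChips. There were 4 arrays of mice given PC61 and sampled on day 12 of pregnancy, 5 arrays of mice given PBS and sampled on the same day, and 5 arrays of non-pregnant mice. PC61 is an antibody against CD25, and the series text describes its pregnant mice as depleted of regulatory T cells. Its dose and timing, and how much of the conceptus the dissected tissue held, are not stated in the labels. The labels do not tie a sample to an animal, so each p-value weighs a difference against a spread between samples that may be technical. Median scanner intensity ranged over 108 to 122 units for PC61, 120 to 139 for PBS and 93.0 to 130 for non-pregnant uterus, and 16607 to 19729 of 45281 probes were detected on each array. Correlation between arrays of a group was 0.861 to 0.980 for PC61, 0.971 to 0.987 for PBS and 0.939 to 0.989 for non-pregnant uterus, and PC61 arrays 2 and 3 stood apart from PC61 array 4 in most of the gene lists below. Of the markers of uterine tissue, Esr1, Myh11, Acta2 and Des were detected on every array, while Pgr was detected on 3 PC61, 4 PBS and 5 non-pregnant arrays. Hoxa10 was detected on 2 PC61, 2 PBS and 4 non-pregnant arrays, and Hoxa11 on 4, 2 and 4. The erythroid markers Gata1, Epb42 and Ahsp and the adult globins have no probe named here and were not analysed here.

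The stretches just upstream of the start sites of 3 of these genes are shown because Hbb-y and Hba-x, although both embryonic globins, differed on the PC61 arrays, and Alas2 followed neither. Each run holds the 150 bases before the RefSeq start (build GRCm38.p6), written 5′ to 3′ on the gene's own strand. Capitals mark the letters GATAA (the core that GATA factors bind), CCACC (the core of the CACC box that KLF1 binds), CCAAT and TATAA on either strand; neighbouring CCACC matches in Alas2 run together.
Hbb-y, chr7:103853208-103853357, minus strand: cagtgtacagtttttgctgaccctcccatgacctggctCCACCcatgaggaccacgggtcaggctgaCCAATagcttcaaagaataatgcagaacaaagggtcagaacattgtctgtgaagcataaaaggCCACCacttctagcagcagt
Hba-x, chr11:32276450-32276599, plus strand: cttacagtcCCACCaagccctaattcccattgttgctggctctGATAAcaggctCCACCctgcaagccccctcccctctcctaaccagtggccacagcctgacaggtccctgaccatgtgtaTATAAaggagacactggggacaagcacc
Alas2, chrX:150547267-150547416, plus strand: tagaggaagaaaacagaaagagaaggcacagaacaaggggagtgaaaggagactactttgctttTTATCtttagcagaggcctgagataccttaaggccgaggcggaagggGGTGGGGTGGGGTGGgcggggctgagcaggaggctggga

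Read over 250 bases upstream, GATAA matched once in each of these 3 genes, at 107 bases before the start in Hba-x and, on the opposite strand, at 86 bases in Alas2 and 162 bases in Hbb-y, where it lies outside the stretch shown. CCACC matched 2 times in Hbb-y, 2 times in Hba-x and 3 times in Alas2. CCAAT was found in Hbb-y at 83 bases before the start and TATAA in Hba-x at 28 bases and, as 2 overlapping matches on opposite strands, in Alas2 at 207 and 208 bases, outside the stretch shown. These letters are common: of 32851 upstream windows of 250 bases, 22.6% held GATAA, 54.3% CCACC, 33.8% CCAAT and 22.8% TATAA. Tfrc has a pair of annotated start windows on chromosome 16, and neither held GATAA. Hbb-y and Hbb-bh1 are neighbours on chromosome 7, in the beta globin cluster, and Hba-x lies next to the adult gene Hba-a1 on chromosome 11.

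Levels below are log2 normalised intensities on each gene's own probe, and they are compared between arrays of 1 gene, not between genes. Hbb-y, the epsilon-y chain, read 14.86, 14.71, 13.91 and 14.88 on PC61 arrays 1 to 4, and 14.85, 14.67, 14.75, 14.89 and 14.77 on arrays of PBS mice. On the non-pregnant arrays it read 4.32, 4.35, 4.74, 4.67 and 4.39 and was not well above background on any. PC61 array 3 alone lay below the PBS arrays, and the other 3 PC61 arrays lay within their range. The other Hbb-y probe gave the same picture, with 14.77, 14.60, 13.58 and 14.68 on the PC61 arrays and 14.25 to 14.78 on the PBS arrays.

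Hba-x, the zeta chain, read 14.11, 12.22, 11.34 and 14.06 on PC61 arrays 1 to 4, against 14.50, 14.60, 14.64, 14.36 and 14.48 on the PBS arrays. Its non-pregnant readings were 4.78, 4.49, 4.38, 4.37 and 4.47, none above background. All 4 PC61 arrays lay below all 5 PBS arrays, PC61 arrays 2 and 3 by the widest margin. Hbb-bh1, the beta-h1 chain, read 13.07, 10.90, 9.96 and 13.15 on the PC61 arrays, against 13.51, 13.84, 13.78, 13.11 and 13.35 on the PBS arrays. The non-pregnant values of Hbb-bh1 were 4.42, 5.09, 4.35, 4.51 and 4.45, again below the detection limit on each array. Its PC61 and PBS groups overlapped only through PC61 array 4, which lay just above the lowest PBS array.

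Alas2, the first enzyme of erythroid haem synthesis, read 11.39, 9.51, 10.56 and 11.31 on PC61 arrays 1 to 4, against 11.28, 10.89, 11.43, 11.16 and 11.10 on the PBS arrays. In non-pregnant uterus it read 6.11, 6.52, 6.43, 6.95 and 5.07, and it was detected on all 14 arrays. The groups of pregnant mice overlapped, and the lowest PC61 array was number 2, not number 3 as for the globins. Tfrc, the receptor that takes up iron-loaded transferrin, read 10.54, 9.56, 9.62 and 11.58 on the PC61 arrays, against 11.49, 11.52, 11.44, 11.25 and 11.50 on the PBS arrays. Its non-pregnant readings were 9.50, 8.91, 9.50, 9.23 and 8.25. PC61 array 4 was above every PBS array for Tfrc, while the other 3 were below them all, and arrays 2 and 3 came close to the non-pregnant range. The other Tfrc probe read 10.51, 9.51, 9.35 and 11.58 on the PC61 arrays and 11.16 to 11.50 on the PBS arrays.

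**Figure D1:**
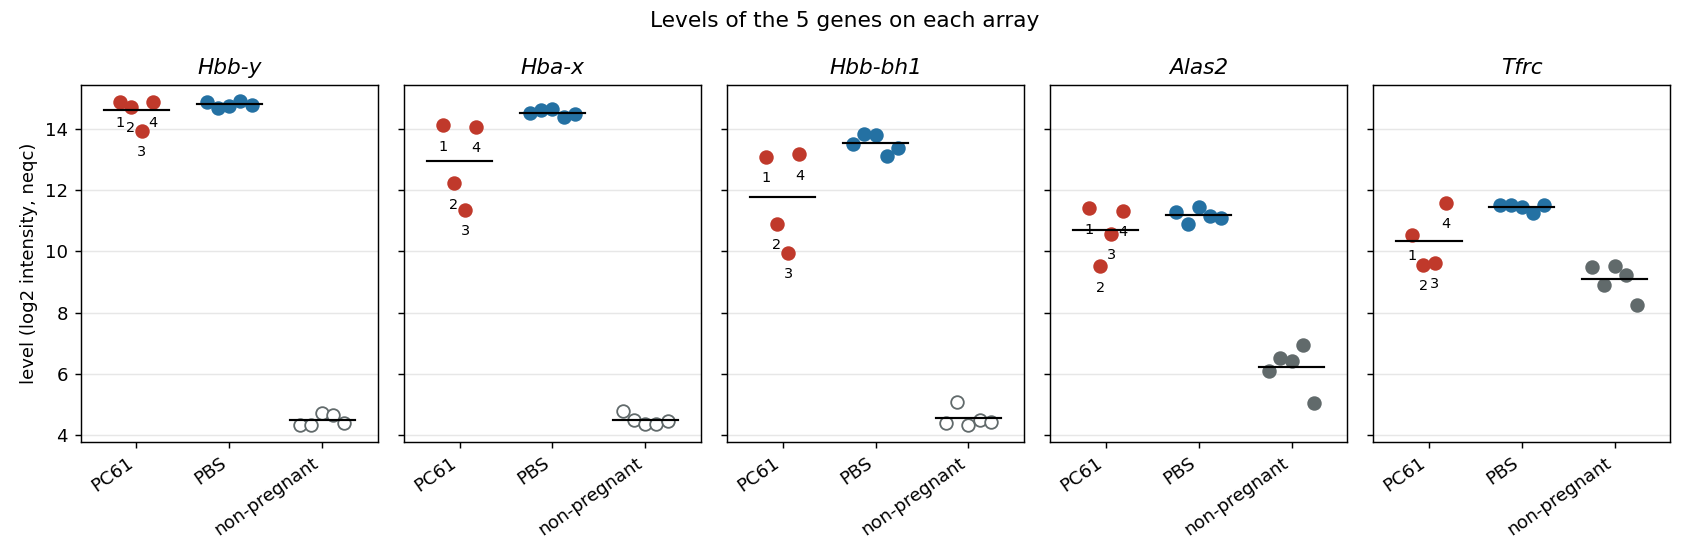
Levels of Hbb-y, Hba-x, Hbb-bh1, Alas2 and Tfrc (log2 normalised intensity) on each of the 4 PC61, 5 PBS and 5 non-pregnant arrays. Each point is 1 array, open points are arrays on which the probe was not detected, the numbers mark the PC61 arrays and the short bars are group means; the globins of PC61 arrays 2 and 3 sit below the PBS arrays for Hba-x and Hbb-bh1, while Hbb-y is lower on array 3 alone.

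All 5 genes rose in the pregnant uterus of PBS-treated mice over non-pregnant uterus, as did 22.9% of the 10478 genes tested (23.7% fell and 46.6% were called in all). Each comparison used limma, fitted over all genes and all 14 arrays, with Benjamini-Hochberg adjusted p under 0.05 as the call. Of the 4886 calls 2399 were higher, and with arrays centred on their median 2269 of 3465 were, the median of all genes then being 0.16. Where a gene was below detection in 1 group, the fold is a bound, taken against the lowest signal of a detected probe on each dim array or the probe's own value, whichever was higher.

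Hbb-y averaged 14.79 ± 0.09 in PBS uterus and 4.49 ± 0.20 in non-pregnant uterus (SD, n = 5 each), at least 777-fold higher. Hba-x averaged 14.52 ± 0.11 in PBS uterus and 4.50 ± 0.17 in non-pregnant uterus, at least 644-fold higher. Hbb-bh1 averaged 13.52 ± 0.30 in PBS uterus against 4.56 ± 0.30 in non-pregnant uterus, at least 323-fold higher. The embryonic globins were thus measured in each pregnant group and only as an upper bound in non-pregnant uterus. The filter on detection had fixed the direction of these differences, so no p-value is set beside them.

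Alas2 averaged 11.17 ± 0.20 in PBS uterus and 6.22 ± 0.71 in non-pregnant uterus (SD, n = 5 each), a 31.0-fold rise (log2 fold change 4.95, SE 0.37, adjusted p = 1.19e-07). Its housekeeping relative Alas1, which starts haem synthesis in all other cells, had a log2 fold change of -0.05 (adjusted p = 0.825). Tfrc rose 5.14-fold, with 11.44 ± 0.11 in PBS uterus and 9.08 ± 0.52 in non-pregnant uterus (log2 fold change 2.36, SE 0.34, adjusted p = 7.90e-05). In a bulk sample more cells of a type and more RNA per cell cannot be told apart, and the same holds for every difference below.

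In PC61-treated mice the 5 genes were also higher than in non-pregnant uterus, in a comparison that shares its non-pregnant arrays with the one above and in which 13.7% of genes were called higher (14.6% lower and 28.3% in all). PC61 means were 14.59 ± 0.46 for Hbb-y, 12.93 ± 1.38 for Hba-x and 11.77 ± 1.60 for Hbb-bh1 (SD, n = 4). Hbb-y was at least 680-fold higher, Hba-x at least 215-fold and Hbb-bh1 at least 96.1-fold, in a direction again fixed by the filter on detection. Alas2, at 10.70 ± 0.87, was 22.3-fold higher than in non-pregnant uterus (adjusted p = 9.31e-07). Tfrc averaged 10.33 ± 0.95 in PC61 uterus and was 2.37-fold higher (log2 fold change 1.25, SE 0.36, adjusted p = 0.0187). That call for Tfrc was lost when the fit held the arrays of these groups alone (adjusted p = 0.0707) and when arrays were weighted by quality, where the log2 fold change was 0.49 (adjusted p = 0.121).

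Between PC61 and PBS, none of the 5 genes passed the test, and neither did any other of the 10478 genes (0% called by limma; the lowest adjusted p was 0.154). At an unadjusted p under 0.05, 1621 genes (15.5%) passed. Hbb-y had a log2 fold change of -0.19 (SE 0.19, 95% confidence interval -0.60 to 0.21, adjusted p = 0.644). The value of Hba-x was -1.58 (SE 0.44, interval -2.53 to -0.64, adjusted p = 0.156), so its PC61 mean was 3.00-fold below its PBS mean. Hbb-bh1 had -1.75 (SE 0.52, interval -2.86 to -0.63, adjusted p = 0.171). The haem synthesis gene Alas2 had -0.48 (SE 0.39, interval -1.31 to 0.35, adjusted p = 0.567). For Tfrc the difference was -1.11 (SE 0.36, interval -1.89 to -0.34, adjusted p = 0.192).

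Set against the whole array, 389 genes (3.71%) had a log2 fold change of -1 or lower, and Hba-x, Hbb-bh1 and Tfrc were among them. Fewer genes than these still had a lower fold change: 162 for Hba-x, 136 for Hbb-bh1 and 324 for Tfrc, against 1117 for Alas2 and 2771 for Hbb-y. Hba-x was the member whose PC61 and PBS arrays did not overlap, as was so for 1.81% of all genes (0.802% with PC61 lower).

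The calls depended on PC61 array 4. Without it 1529 genes (14.6%) were called, 7.81% higher and 6.79% lower, and Hba-x (log2 fold change -1.96, adjusted p = 0.00636), Hbb-bh1 (-2.21, adjusted p = 0.00800) and Tfrc (-1.53, adjusted p = 0.00255) were among them; this leaves out the array nearest to the PBS group. Without PC61 array 3 the fold changes of Hba-x and Hbb-bh1 were -1.06 and -1.14 and that of Hbb-y was 0.032. Alas2 was at -0.08 without PC61 array 2, its lowest. Centring arrays on their median in place of quantile normalisation called 303 of the 10478 genes, all lower in PC61. It put the median of all genes at -0.30 (0.01 otherwise), and Hba-x, Hbb-bh1 and Tfrc were then called too. Weighting arrays by quality called 4027 of the 10478 genes, with Hba-x, Hbb-bh1, Alas2 and Tfrc among them. Calls were common in that setting, so nothing particular to these genes is read from them.

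**Figure D2:**
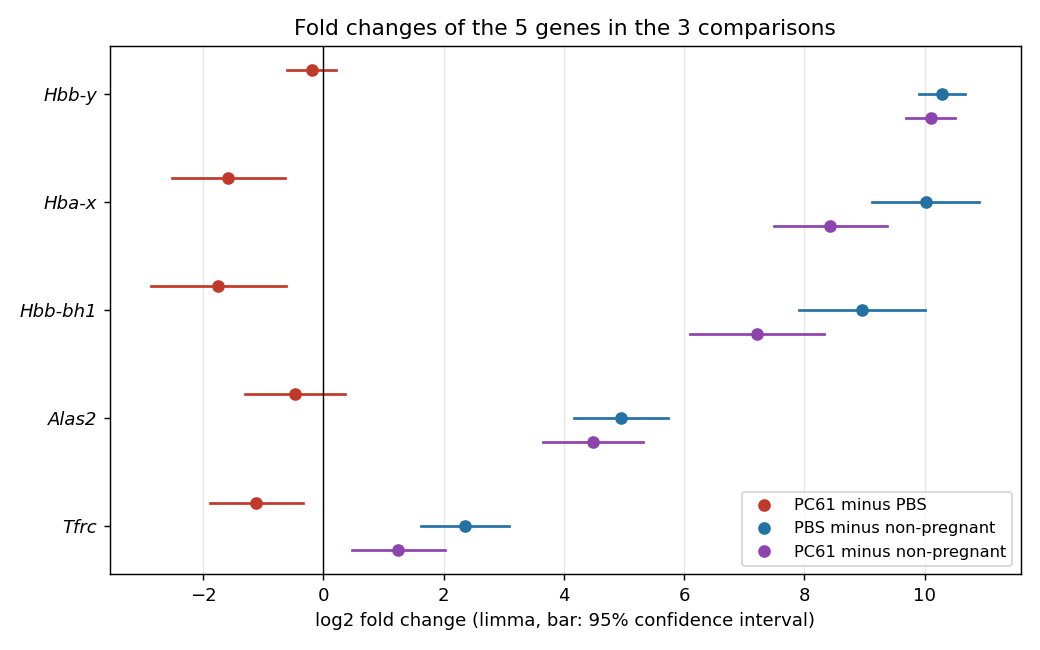
Log2 fold changes of the 5 genes in the 3 comparisons (PC61 over PBS, PC61 over non-pregnant, PBS over non-pregnant), as points with 95% confidence intervals from limma. The intervals for PC61 over PBS lie below 0 for Hba-x, Hbb-bh1 and Tfrc and span 0 for Hbb-y and Alas2, and none of these passed the adjusted test. Both comparisons with non-pregnant uterus lie above 0 for all 5 genes. For the globins these last points and intervals were computed against background readings and are not measured folds.

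The 5 genes did not take the same course over the PC61 arrays. Relative to its PBS mean, Hba-x stood at -0.41, -2.30, -3.17 and -0.46 (log2) on PC61 arrays 1 to 4, and Hbb-bh1 stood at -0.45, -2.62, -3.56 and -0.36. These alpha-type and beta-type embryonic chains kept together, their difference staying between -0.09 and 0.39 on the PC61 arrays and between -0.24 and 0.25 on the PBS arrays. Hbb-y stood at 0.07, -0.07, -0.87 and 0.09. Its value exceeded that of Hba-x by 0.48, 2.23, 2.30 and 0.55 on the PC61 arrays, against -0.20 to 0.26 on the PBS arrays. All 4 PC61 arrays thus lay outside the PBS range, but Hba-x alone was already below every PBS array on each of them. Its difference from Alas2 lay outside the PBS range too. No share over other gene pairs was computed, so nothing particular to this pair is read from it. The neighbour of Hbb-y in the beta globin cluster, Hbb-bh1, was also further down than Hbb-y. The gap was 0.52, 2.54, 2.69 and 0.46 on the PC61 arrays, where the PBS arrays spanned -0.43 to 0.51.

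Hbb-y was among the brightest probes of every pregnant array. It read 17054.5 to 27646.9 scanner units on the PC61 arrays and 25853.3 to 37232.8 on the PBS arrays, while the brightest probe of an array read 29107.8 to 40335.6 for PC61 and 31233.4 to 41990.5 for PBS. Hba-x read 2901.1 to 13419.2 units on the PC61 arrays and 22994.9 to 28368.9 on the PBS arrays. The part that the upper end of the scale plays in the small change of Hbb-y was not tested.

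Alas2 stood at 0.22, -1.66, -0.61 and 0.14 relative to its PBS mean on PC61 arrays 1 to 4, and Tfrc at -0.90, -1.88, -1.82 and 0.14. The change of Hba-x minus that of Alas2 was -0.63, -0.64, -2.56 and -0.60 on the PC61 arrays, where the PBS arrays spanned -0.14 to 0.36. On PC61 array 1 Tfrc was the furthest down of the 5, and the other 4 genes stood between -0.45 and 0.22 there.

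The genes of the same pathway rose in part with pregnancy. Of 15 other haem synthesis genes measured, 8 rose and 1 fell in PBS over non-pregnant uterus, beside 22.9% and 23.7% of all genes. Their median log2 fold change was 0.56 against -0.03 over all genes. Slc25a37 (mitoferrin 1, which brings iron into the erythroid mitochondrion) rose by 2.40 (adjusted p = 0.000186) and Alad, the second enzyme of the pathway, by 1.39 (adjusted p = 0.00675). Fech, which inserts iron into protoporphyrin to form haem, rose by 0.67 (adjusted p = 0.0397). Iscu, a scaffold for iron-sulphur clusters, fell by 0.97. In PC61 over non-pregnant uterus, 1 of the 15 rose (Slc25a37, 1.66, adjusted p = 0.00742) and 1 fell (Iscu, not called with median centring), with a median of 0.03. Of all genes 13.7% rose and 14.6% fell there.

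In PC61 over PBS none of the 15 passed, and their median was -0.34 against 0.01 over all genes. Alad stood at 0.36, -1.92, -1.77 and 0.11 relative to its PBS mean on PC61 arrays 1 to 4, and Slc25a37 at 0.64, -1.77, -1.80 and -0.01. Both were therefore down on arrays 2 and 3 and not on arrays 1 and 4, by like amounts on both low arrays. Without PC61 array 4, 2 of the 15 were called lower, beside 6.79% of all genes (14.6% in either direction), and nothing particular to the list is read from so few.

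Red cell membrane and maturation genes were the largest of the erythroid lists. Of 29 measured, 23 rose and 1 (Slc14a1, the urea transporter) fell in PBS over non-pregnant uterus, beside 22.9% and 23.7% of all genes. Their median log2 fold change was 1.85. Of the 29, 7 were detected on no non-pregnant array, and 16 of the other 22 rose. Slc4a1 (band 3, the anion exchanger of the red cell), detected on 1 of the 5 non-pregnant arrays, rose by 8.68 (SE 0.63, adjusted p = 1.08e-07). That value was taken mostly against background readings and its size is not well measured. Kel, the Kell antigen, was at least 21.3-fold higher and Sptb, erythroid beta spectrin, at least 20.1-fold higher. In PC61 over non-pregnant uterus 16 of 29 rose and 1 fell, beside 13.7% and 14.6% of all genes. The median was 1.07, and leaving out 1 PC61 array gave 13 to 18 risen.

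None of the 29 passed in PC61 over PBS, although 27 had a log2 fold change below 0 (48.5% of all genes did) and the median was -0.62. Slc4a1 read 13.86, 10.31, 9.54 and 13.25 on PC61 arrays 1 to 4, against 13.33, 13.49, 13.53, 13.56 and 13.27 on the PBS arrays, a log2 fold change of -1.70 (SE 0.67, adjusted p = 0.258). It was above every PBS array on PC61 array 1 and far below them on arrays 2 and 3. Trim10, an erythroid maturation gene, stood at 0.19, -3.01, -3.85 and -0.58 relative to its PBS mean. Xpo7, an exportin of late erythroblasts, was the gene of this list whose PC61 and PBS arrays did not overlap (log2 fold change -0.76, adjusted p = 0.192). Without PC61 array 4, 5 of the 29 were called lower, beside the same 6.79% of all genes, and with median centring 3 were.

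Among 16 erythroid transcription factors, 7 rose and 2 fell in PBS over non-pregnant uterus (median 0.46), beside 22.9% and 23.7% of all genes. No non-pregnant array detected Klf1, and 6 of the other 15 rose. In PC61 over non-pregnant uterus 5 of the 16 rose and 2 fell (median 0.17), beside 13.7% and 14.6% of all genes. Klf1, the activator of erythroid genes including the globins, read 10.09, 4.77, 5.04 and 8.90 on PC61 arrays 1 to 4, against 8.69, 8.95, 8.92, 9.54 and 9.26 on the PBS arrays and 4.47 to 4.95 in non-pregnant uterus. It was not detected on PC61 arrays 2 and 3, where it lay at or near the non-pregnant range, and was highest on PC61 array 1. Klf1 was at least 14.8-fold higher in PBS than in non-pregnant uterus, a direction fixed by the filter on detection. Its log2 fold change in PC61 over PBS was -1.87 (SE 0.84, adjusted p = 0.309). Nfe2, which drives late erythroid and platelet genes, stood at 0.40, -3.33, -3.88 and -0.28 relative to its PBS mean on the PC61 arrays. Bcl11a, the repressor that silences embryonic globin in later red cells, stood at 0.40, -1.40, -2.67 and -0.05. Tal1, a factor of early blood cells, stood at 0.16, -0.85, -1.18 and -0.40. Others went the other way: Zbtb7a stood at 0.34, 1.29, 1.44 and -0.24, and Klf2 at -0.01, 1.08, 1.46 and -0.60. None of the 16 passed in PC61 over PBS, where 11 were below 0 and 5 above 0, with a median of -0.29. Of all genes 48.5% were below 0. Without PC61 array 4, 2 of the 16 were called higher and 1 lower, beside 7.81% and 6.79% of all genes.

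The embryonic globins were set against the 16 genes of these lists that had risen by 2 or more (log2) in PBS over non-pregnant uterus. On PC61 arrays 1 to 4, 2, 15, 13 and 12 of the 16 were further below their PBS mean than Hbb-y was. For Hba-x these counts were 2, 7, 6 and 1, and for Hbb-bh1 they were 2, 7, 5 and 3. For Alas2 they were 4, 9, 15 and 14, and for Tfrc 2, 8, 9 and 14. These counts are limited by how far each gene had risen, since a gene that rose by less reaches background after a smaller change. As a percentage of its log2 rise with pregnancy, Hba-x kept 77.0% on PC61 array 2 and 68.3% on array 3, Hbb-bh1 kept 70.8% and 60.2%, and Hbb-y kept 99.3% and 91.5%. The medians of the 16 genes were 42.4% and 30.3% there, and 1 to 3 of the 16 kept more than each globin. Those that did were drawn from Kit, Slc2a1 and Icam4, with Kit alone above Hbb-y. Over all 612 other genes that had risen by 2 or more, the medians on these arrays were 59.0% and 55.8%. Alas2 kept 66.5% and 87.7% and Tfrc 20.5% and 22.9%. The placing of Hba-x and Hbb-bh1 thus depended on the scale, with 5 to 7 of the 16 genes further down on the log2 scale and 13 or 14 keeping less of their rise; the rises of the globins and of other genes undetected without pregnancy are themselves only bounds. On PC61 array 1 the order was different, with most of the 16 genes at or above their PBS mean and Hba-x, Hbb-bh1 and Tfrc below theirs. There 14 of the 16 kept more of their rise than each globin, while Kit (1.45%) and Slc2a1 (66.6%) kept less. On PC61 array 4, 9 of the 16 kept more than Hba-x and Hbb-bh1, and 4 kept more than Hbb-y.

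**Figure D3:**
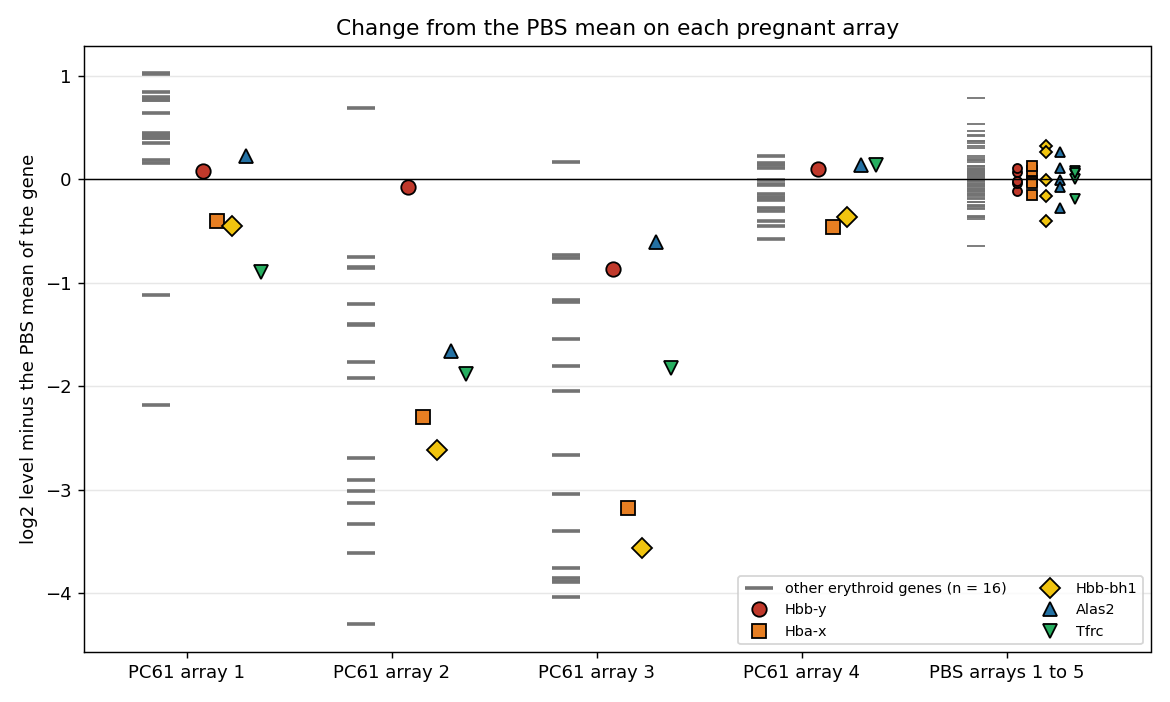
Change from the PBS mean (log2) on each pregnant array for Hbb-y, Hba-x, Hbb-bh1, Alas2 and Tfrc (symbols) and for 16 other erythroid genes that rose by 2 or more with pregnancy (bars). On PC61 arrays 2 and 3 Hba-x and Hbb-bh1 lie among the other genes and Hbb-y lies near the top; on PC61 array 4 all 5 genes are between -0.46 and 0.14, and the PBS arrays at the right show the spread around 0.

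Over all 60 other erythroid and haem genes (haem synthesis, transcription factors, membrane and maturation), 8 (13.3%) lay below every PBS array on PC61 array 1, 44 (73.3%) on array 2, 45 (75%) on array 3 and 16 (26.7%) on array 4. The shares over all genes were 23.8%, 30.8%, 32.5% and 19.4%. Of the 60 genes, 52 were detected on each of PC61 arrays 2 and 3 and all 60 on each of arrays 1 and 4. On PC61 array 1 the erythroid share was below that of all genes. On arrays 2 and 3 it was far above it, and on array 4 it was above it by less.

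Some lists for other cells of the pregnant uterus were low on the same arrays, and their part in the result was not tested. The mean of the 3 embryonic globins, relative to PBS, was -0.26, -1.66, -2.53 and -0.24 (log2) on PC61 arrays 1 to 4, while PBS arrays spanned -0.15 to 0.12. For 17 genes of yolk sac endoderm the same quantity was -0.98, -3.59, -2.22 and 0.34, against -0.12 to 0.26. For 19 genes of trophoblast and placenta it was -5.96, -5.59, -2.98 and 0.50, against -0.18 to 0.14. Of the 19 trophoblast genes 6, 10, 14 and 19 were detected on PC61 arrays 1 to 4, and of the 17 yolk sac genes 16, 14, 16 and 17 were. The trophoblast list was thus lowest on PC61 array 1, where the erythroid membrane list stood at 0.12, while that list stood at -1.26 and -1.34 on arrays 2 and 3. On PC61 array 4 the erythroid membrane list stood at -0.13.

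Proliferation genes and uterine muscle genes also differed by array. The 20 cell cycle genes stood at 0.28, -0.95, -1.10 and -0.09 on PC61 arrays 1 to 4, while PBS arrays spanned -0.04 to 0.05. The 14 smooth muscle genes stood at 1.30, 1.73, 1.54 and -0.76, against -0.23 to 0.30, and on non-pregnant arrays they were at 0.94 to 1.41. The 10 platelet genes stood at 0.09, -0.71, -0.38 and -0.07, and the 9 leukocyte genes at 0.31, 0.41, 0.20 and -0.24. The 12 decidua genes stood at -1.003, 0.17, 0.25 and -0.08 and the 10 endothelial genes at -0.70, 0.01, 0.19 and -0.09. Both means were lowest on PC61 array 1 and not on arrays 2 and 3. The decidua genes were mixed on array 1, where the mean included Prl8a2 at -7.68 and the median was 0.13. There 5 of the 12 lay below every PBS array and 4 above every PBS array. The decidua median was lowest on array 4, at -0.07. None of these lists held a gene called in PC61 over PBS. Without PC61 array 4, 19 of 19 trophoblast, 13 of 17 yolk sac and 1 of 20 cell cycle genes were called lower. In the same setting 13 of 14 smooth muscle genes were called higher. Of all genes 6.79% were then called lower and 7.81% higher.

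**Figure D4:**
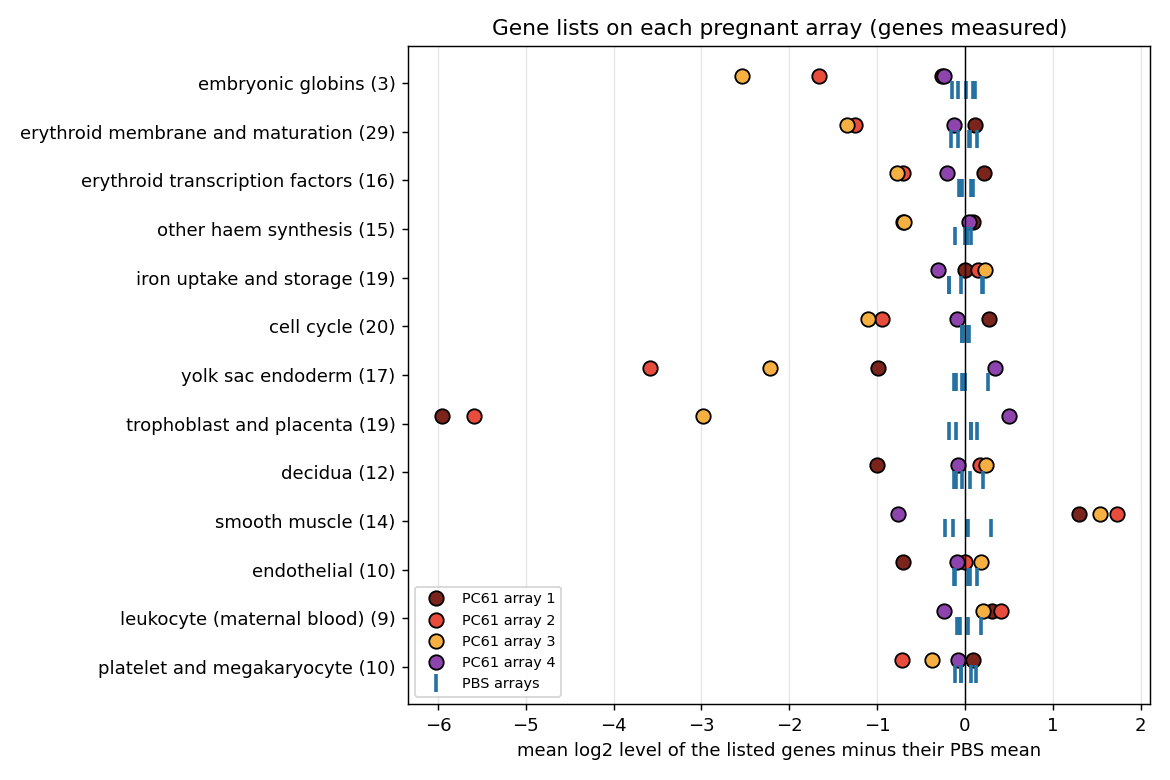
Mean log2 level of each gene list minus its PBS mean, for the 4 PC61 arrays (circles) and the 5 PBS arrays (ticks), with the number of genes measured in each list. On PC61 array 1 the trophoblast list is at -5.96 while the erythroid lists are near 0, and on arrays 2 and 3 the globin, erythroid, yolk sac and trophoblast lists are all below the PBS arrays.

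The genes whose levels ran most like each pattern were picked by Pearson correlation over the 9 pregnant arrays, from 2970 genes with an SD of at least 0.5. These arrays share the 2 low PC61 arrays, so such values describe that pattern and carry no test. For the mean of the 3 embryonic globins they were Mpped1 and Igf2bp3 (r = 0.985 each), Tfap2a (0.983), Cdkn1c (0.978) and Ctse (0.975). For Alas2 they were Col9a2 (0.958), Serpinf2 (0.955), Apoa1 (0.952), Foxa3 (0.943) and Ambp (0.941), of which Apoa1, Serpinf2 and Ambp encode secreted plasma proteins. For Tfrc they were Trim71 (0.991), Dgkk (0.989), Lrp2 (0.988), Cfi (0.985) and Pkd2l1 (0.983); Lrp2 encodes megalin, an uptake receptor of the yolk sac and other epithelia. None of the erythroid genes listed above was among the 15.

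The other iron genes were mixed. Of 19 iron uptake and storage genes, 3 rose and 5 fell in PBS over non-pregnant uterus, with a median log2 fold change of 0.10; shares of this size are near those over all genes (22.9% higher and 23.7% lower). Leaving out Slc39a14, which no non-pregnant array detected, 2 of the other 18 rose. Slc39a14, a metal importer of the ZIP family, was at least 2.14-fold higher in PBS uterus, a direction fixed by the filter on detection. It stood at -1.75, -1.65, -1.24 and -0.04 relative to its PBS mean on PC61 arrays 1 to 4, low on the same 3 arrays as Tfrc. Slc11a2, the divalent metal transporter, rose by 0.80 (adjusted p = 0.000275), and Ncoa4, which releases iron from ferritin, rose by 1.16. Steap3, the endosomal iron reductase, fell by 1.56 and Hfe, the partner of the transferrin receptor, fell by 1.76. Tfr2, the second transferrin receptor, had a log2 fold change of 0.51 (adjusted p = 0.114), and Fth1, the ferritin heavy chain, 0.00 (adjusted p = 0.981). In PC61 over non-pregnant uterus 1 of the 19 rose and 5 fell, beside 13.7% and 14.6% of all genes. None passed in PC61 over PBS (median -0.17). Without PC61 array 4, 3 of the 19 were called higher and 1 lower in PC61 over PBS, beside 7.81% and 6.79% of all genes.

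Among 9 genes of haem export and breakdown, 5 rose and 2 fell in PBS over non-pregnant uterus, beside 22.9% and 23.7% of all genes. Hmox1, the inducible haem oxygenase, rose by 1.74 (adjusted p = 0.00615) and Flvcr2, a transporter of the FLVCR family, by 2.07 (adjusted p = 0.00554). Hp, the plasma scavenger of free haemoglobin, fell by 3.63 (adjusted p = 1.24e-05). Hpx, the haem scavenger, detected on 1 of the 5 non-pregnant arrays, rose by 2.25 (adjusted p = 0.000423), a value taken mostly against background readings. In PC61 over PBS none of the 9 passed. Flvcr2 stood at -2.92, -3.80, -3.13 and 0.21 relative to its PBS mean on PC61 arrays 1 to 4 (log2 fold change -2.41, adjusted p = 0.154). It was low on array 1 as well, as Tfrc was and the globins, at -0.41 and -0.45 for Hba-x and Hbb-bh1, were much less. Hmox1 stood at -0.69, 1.17, 1.76 and 1.49, higher on 3 of the 4 arrays. Without PC61 array 4, 2 of the 9 were called higher and 2 lower, beside 7.81% and 6.79% of all genes.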

How the data were processed

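RNA of 14 uterus samples was measured on single-colour Illumina BeadChips of 45281 probes. Per the file headers, the scanner table the authors deposited gives an average intensity and a detection p-value per probe and array. The authors' deposited value table holds log2 values (6.51 to 15.06) of 16948 probes with medians of 7.96 to 7.99; its normalisation is not given in the sources used here. Probes were named from the platform annotation (15469 with 1 symbol, 5 with several, 29812 unnamed). Intensities were corrected for background from the detection p-values and quantile-normalised with offset 16 (neqc, limma 3.58.1, R 4.3.3). Probes with detection p under 0.01 on at least 4 arrays (20967) were kept, with the brightest probe of each gene, leaving 10478 genes. One limma model over all 14 arrays (residual df 11) gave the 3 comparisons, two-sided, Benjamini-Hochberg adjusted. The number of arrays limits the precision. The method was tested on simulated data.

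The 5 genes and the gene lists were chosen with earlier results of these data known. All measured genes of the erythroid, haem and iron lists could be named, and the 5 genes of highest correlation for each pattern. Not every same-numbered pair of arrays correlated above 0.1 in any comparison, so numbers were not used as pairs. Alternatives covered normalisation, filter, probe choice, arrays in the fit, weights and leaving out each array; counts per list without single PC61 arrays or with median centring were added after seeing the data.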

Additional observations from a re-analysis of the deposited data

How the results depend on the processing

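The rises of the 5 genes in PBS over non-pregnant uterus kept their direction and their call under every alternative that measured them (a filter on detection on all 14 arrays leaves the globins out). In PC61 over non-pregnant uterus so did all except Tfrc (log2 fold change 1.25 with the arrays of these groups only, 0.49 with array weights, both no longer called; 0.83 to 1.50 when single arrays were left out). In PC61 over PBS, median centring called 303 of the 10478 genes (0 higher). It gave -1.68 for Hba-x (adjusted p = 0.0254), -1.95 for Hbb-bh1 (0.0246) and -1.43 for Tfrc (0.0371). Array weights called 4027 of the 10478 genes. They gave -2.46 for Hba-x, -2.80 for Hbb-bh1, -1.10 for Alas2 and -1.74 for Tfrc, all past the threshold. Leaving out single arrays gave 0 to 1529 genes called (2 without PC61 array 1, 1529 without PC61 array 4), and -0.29 to 0.032 for Hbb-y (0.032, reversed, without PC61 array 3), -1.98 to -1.06 for Hba-x, -2.21 to -1.14 for Hbb-bh1, -0.71 to -0.08 for Alas2 and -1.53 to -0.86 for Tfrc. The cause was not tested. With probes detected on all 14 arrays, and so fewer genes tested, 3204 genes were called in PBS over non-pregnant uterus and 1747 in PC61 over non-pregnant uterus; median centring called 1794 in the second. In PBS over non-pregnant uterus it called 3465 genes, 2269 of them higher, against 2399 of 4886 in the setting reported. With the replicate block, PC61 over PBS had 0 genes called, and Hba-x was at -1.59, Hbb-bh1 at -1.78, Tfrc at -1.21, Alas2 at -0.63 and Hbb-y at -0.21; it changed no call of the 5 genes. Same-numbered PC61 and PBS arrays correlated at -0.175 to 0.0865, with 1 of 4 best with its own number, and PBS and non-pregnant arrays at 0.00298 to 0.333, with 4 of 5 best with their own number, a hint from the data and not from the design. The slide was not run as a block, since the headers used here give none. Globin levels in non-pregnant uterus are limited by background, so their folds are bounds. The direction of these folds was fixed by the filter on detection, so their calls are no support for it.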
